A study of Mus musculus with 27 samples.

Results

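The genes described here are 10 markers of liver zonation, the unequal use of genes along the axis from the portal triad to the central vein. They comprise 6 pericentral markers, namely *Glul*, *Cyp2e1*, *Cyp1a2*, *Oat*, *Axin2* and *Tbx3*, and 4 periportal markers, namely *Cyp2f2*, *Hal*, *Sds* and *Gls2*. They were taken by symbol from a table of 36333 genes, with earlier results of these data known, and all 10 were found in it. The samples were liver, omental adipose tissue and skeletal muscle of *Mlx*KO mice, 27 in all. Each tissue had 4 samples at 5 months of age and 5 at 20 months. The age of 20 months is that stated in the sample titles and in the main text of the paper. The codes of the older samples, and the paper's supplement for numbers with the same endings, give a lower age. Which age holds was not settled, and 20 months is used throughout as the label of the older group. The study asked how loss of *Mlx*, the shared dimerization partner of the glucose-responsive factors ChREBP and MondoA, bears on aging and metabolism. The comparison made here is that of older with younger *Mlx*KO mice within each tissue, and WT mice were not analysed here.

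All groups carried the same alleles, Gt(ROSA)26Sortm1(cre/ERT2)Tyj on a B6.129 background crossed with Mlx Flox/Flox, and had the same treatment. Both ages had been given 5 daily i.p. injections of tamoxifen at 75 mg/kg in corn oil at weaning, once they weighed at least 15 g. CreERT2 is expressed from the *Rosa26* locus, so excision was body-wide and not restricted to hepatocytes, adipocytes or muscle fibers. Per the paper, the animals used for RNA were male. Its supplement lists more *Mlx* RNA left, relative to WT, in skeletal muscle than in liver or adipose tissue, in younger and older mice. Loss of *Mlx* RNA was thus less complete in muscle, and the part of this in differences between tissues was not tested. The 4 younger mice, called A, B, C and D here in the order of their numbers in the labels, gave all 3 tissues, and the older samples carry numbers of their own in each tissue. *Mlx* itself had values of 18.8 to 32.4 in liver, but the value pools exons inside and outside the deleted part and so does not check the excision.

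Hepatocytes differ in function with their distance from the blood supply. Those near the portal vein receive oxygen, amino acids and hormones first and carry most gluconeogenesis, urea synthesis and amino acid catabolism, whereas those around the central vein make glutamine from residual ammonia, oxidize xenobiotics through cytochrome P450 enzymes and make bile acids. The pericentral program is maintained by Wnt ligands from central vein endothelial cells that act through beta-catenin, of which *Axin2* is a standard target, and the periportal program depends in part on glucagon. In adipose tissue and muscle the same genes have no zonal meaning, although glutamine synthetase is also a well known muscle and fat enzyme.

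Expression is given below as the deposited scaled value, a CPM that the authors scaled further for each sample, so that samples differ in the sum of their values. Each sample had between 14384695 and 25673919 reads on genes, and 3 reads of a sample corresponded to values of 0.0703 to 0.24, below which no level could be told from 0. The liver of mouse 74 at 20 months had the lowest sum of values among livers, 952696 against 1173200 to 1395315 in the other 8. It also had the lowest median correlation with the other livers, 0.938 against 0.957 to 0.975. Sums of liver values did not overlap between the ages, with 1319547 to 1395315 in younger livers and 952696 to 1233458 in older ones. Age differences in the scaled values of liver thus carry a scaling that differed with age, and other scalings were among the alternatives below. A gene was tested in a tissue where 4 or more of its 9 samples reached a value of 1, which all 10 markers did in liver, 7 of 10 in omental adipose tissue and 6 of 10 in muscle. Log2 differences refer to log2(value + 1), are given as 20 minus 5 months with their SE, and carry the adjusted p of limma with Benjamini-Hochberg adjustment over all genes tested in that tissue. In bulk tissue, fewer cells of a type and less RNA per cell cannot be told apart.

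The promoters of 4 markers are shown because these genes carry the age differences described below. They are RefSeq windows of GRCm38.p6 that run from 250 bases before to 50 bases after the start of transcription, 5′ to 3′ on the strand of the gene. *Glul* is at chr1:153899679-153899978 (+), *Cyp2e1* at chr7:140763569-140763868 (+), *Cyp2f2* at chr7:27119705-27120004 (+) and *Hal* at chr10:93488518-93488817 (+). Capitals mark matches, on either strand, to the letters CTTTGA of TCF/LEF factors, which carry the beta-catenin signal, and to the letters TATAAA of the TATA box.
Glul: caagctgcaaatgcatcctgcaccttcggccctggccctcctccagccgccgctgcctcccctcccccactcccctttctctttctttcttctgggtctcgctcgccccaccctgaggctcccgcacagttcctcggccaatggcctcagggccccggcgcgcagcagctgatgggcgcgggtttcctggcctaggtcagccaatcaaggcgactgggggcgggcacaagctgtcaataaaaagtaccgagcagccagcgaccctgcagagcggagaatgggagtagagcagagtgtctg
Cyp2e1: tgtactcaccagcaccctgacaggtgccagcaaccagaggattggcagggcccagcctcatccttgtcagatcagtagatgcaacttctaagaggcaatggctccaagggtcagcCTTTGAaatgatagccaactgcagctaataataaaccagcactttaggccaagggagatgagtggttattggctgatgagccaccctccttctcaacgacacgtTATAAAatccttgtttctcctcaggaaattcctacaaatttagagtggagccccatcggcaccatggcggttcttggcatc
Cyp2f2: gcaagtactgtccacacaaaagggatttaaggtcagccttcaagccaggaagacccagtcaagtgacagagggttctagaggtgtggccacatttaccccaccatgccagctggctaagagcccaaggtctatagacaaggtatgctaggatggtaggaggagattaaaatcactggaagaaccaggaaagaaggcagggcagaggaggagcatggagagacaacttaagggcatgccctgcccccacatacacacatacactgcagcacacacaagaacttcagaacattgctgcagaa
Hal: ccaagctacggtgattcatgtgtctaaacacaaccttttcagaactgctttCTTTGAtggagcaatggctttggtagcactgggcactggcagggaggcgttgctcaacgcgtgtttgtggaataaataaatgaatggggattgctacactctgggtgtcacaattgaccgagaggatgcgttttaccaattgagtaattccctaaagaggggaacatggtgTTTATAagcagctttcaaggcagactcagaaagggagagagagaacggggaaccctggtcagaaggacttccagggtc
RefSeq windows were matched by gene ID for 7 of the 10 markers, these 4 and *Cyp1a2*, *Oat* and *Axin2*, and not for *Tbx3*, *Sds* and *Gls2*. CTTTGA was present in 3 of the 7, namely *Cyp2e1* at position -135 from the start, *Hal* at -199 and, on the reverse strand, *Cyp1a2* at -243, and in 16% of 32851 promoters of the same length. TATAAA was present in *Cyp2e1* at -31, in *Cyp1a2* at -29 and, on the reverse strand, in *Hal* at -28, and in 13.6% of all promoters. The E-box CACGTG, an element that *Mlx* heterodimers can bind, was in 0 of the 7 windows and in 7.15% of all promoters. The letters TGACG of a CREB half-site were in *Oat* alone of the 7, against 20.8% of all promoters, and the letters GTTAAT (HNF1 half-site) and CAAAGTCCA (HNF4) were in 0 of the 7, against 7.1% and 0.475%. No match overlapped another. The *Glul*, *Oat* and *Axin2* windows were GC-rich, with 64.3%, 61.7% and 70% G or C and 17, 22 and 31 CpG dinucleotides, whereas those of *Cyp2e1*, *Cyp1a2*, *Cyp2f2* and *Hal* had 47.7% to 50.3% G or C and 0 to 7 CpG dinucleotides.

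In liver at 5 months, the order of the markers per kb of exon was led by *Cyp2e1*, an ethanol-oxidizing cytochrome P450, with a mean of 7307 per kb (4141 to 8577 over 4 livers). *Oat*, ornithine aminotransferase, followed with 1096 per kb and did not overlap it. *Glul* (372 per kb), *Cyp2f2* (345), *Sds* (262), *Cyp1a2* (246) and *Gls2* (227) formed a run in which each overlapped the next. *Hal* at 139 per kb, *Tbx3* at 12.4 and *Axin2* at 4.88 were each below all values of the gene above them in the order. At 20 months the levels per kb ran from 5602 for *Cyp2e1* to 4.63 for *Axin2*, and the 3 periportal enzymes *Gls2* (131), *Sds* (103) and *Hal* (69) stood below *Cyp1a2* (283) without overlap between *Cyp1a2* and *Gls2*.

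**Figure D1:**
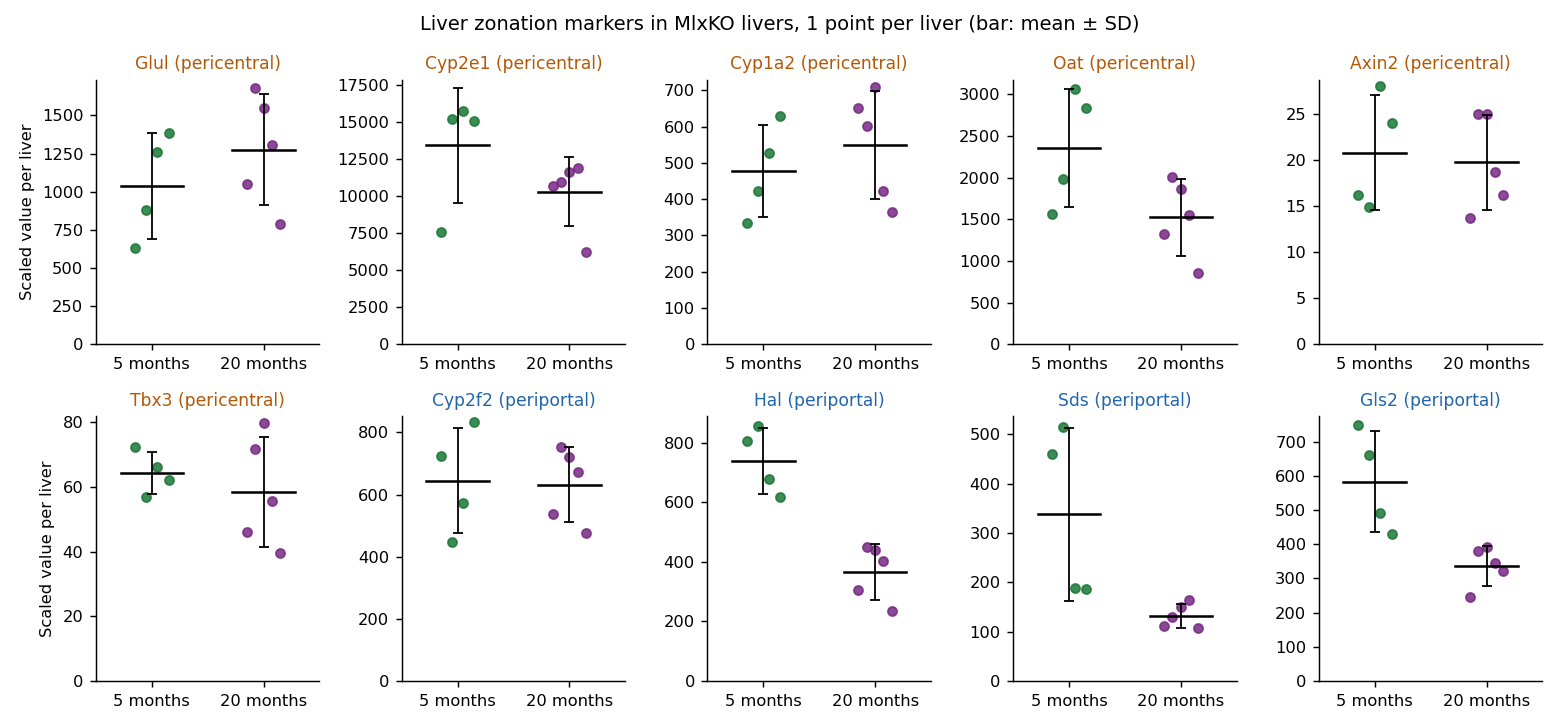
Scaled values of the 10 zonation markers in liver at 5 months (green, n = 4) and 20 months (purple, n = 5), with 1 point per liver and bars for the mean ± SD. In these scaled values the ages do not overlap for *Hal*, *Sds* and *Gls2*, and overlap for the other 7 markers. Per read on genes, *Gls2* overlaps. The share of all genes without overlap is not given here.

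Among the periportal markers, 3 of the 4 were lower in the older livers, *Hal*, *Sds* and *Gls2*, and *Cyp2f2* had means that differed by less than their spread. The share of all 12654 genes tested in liver that were lower at 20 months was 9.79%, and 19.8% passed the test in either direction. The median log2 difference was -0.91 over the 4 periportal markers, -0.12 over the 6 pericentral markers and 0.00106 over all genes tested.

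*Hal* encodes histidine ammonia-lyase, which opens histidine degradation. Its values were 806, 858, 680 and 617 in the livers of mice A, B, C and D at 5 months, and 304, 452, 440, 404 and 235 in those of mice 16, 17, 18, 19 and 74 at 20 months. All 5 older livers were below all 4 younger ones. The mean fell from 740 ± 111 to 367 ± 93.8 (SD, n = 4 and 5), a ratio of 2.02 of younger to older, with a log2 difference of -1.04 ± 0.20 (limma adjusted p = 0.0109). The exact two-sided permutation p was 0.00794, the smallest that the 126 splits of 4 and 5 livers allow. Here and below, this p is not adjusted for the number of genes. The adjusted p stayed between 2.16e-05 and 0.0374 under the 17 alternatives tried.

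*Sds* encodes serine dehydratase, which turns serine into pyruvate for gluconeogenesis. Its values were 460 and 516 in mice A and B, 189 and 186 in mice C and D, and 112, 130, 149, 164 and 107 in the older mice 16, 17, 18, 19 and 74. The younger livers thus fell into a high and a low pair, and the low pair was still above every older liver. *Sds* fell from 338 ± 175 to 132 ± 24.6 (log2 difference -1.21 ± 0.31, limma adjusted p = 0.0236, exact permutation p = 0.00794). The adjusted p was 0.0637 without mouse A, 0.0661 without mouse B and 0.0514 without mouse 18, with log2 differences of -1.004, -0.95 and -1.25.

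*Gls2*, the liver-type glutaminase that feeds ammonia to the urea cycle, had values of 749, 661, 493 and 430 in the younger livers and 245, 380, 391, 346 and 323 in the older ones, in the same order of mice. The ages did not overlap in scaled values, and the gap between the lowest younger and the highest older liver was 430 against 391. Per read on genes they overlapped, with 5380 of 17200431 reads in mouse D and 6439 of 19007751 in mouse 74. The mean fell from 583 ± 147 to 337 ± 58 (log2 difference -0.77 ± 0.19, limma adjusted p = 0.0211, exact permutation p = 0.00794). The adjusted p was 0.0574 without mouse A, 0.0641 without mouse B and 0.0531 when the samples were rescaled without the 20 most abundant genes.

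*Cyp2f2*, a periportal cytochrome P450, had values of 725, 448, 573 and 832 at 5 months and 536, 753, 720, 672 and 475 at 20 months, so the ages overlapped over most of their range. The means were 645 ± 169 and 631 ± 120, with a log2 difference of -0.01 ± 0.20 (limma adjusted p = 0.97).

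Of the 6 pericentral markers, 0 passed limma's adjusted threshold in liver, 1 (*Oat*) had an unadjusted p under 0.05, and 0 passed by edgeR or DESeq2 on the reads. *Glul*, glutamine synthetase, which marks the innermost hepatocytes around the central vein, had values of 632, 879, 1257 and 1383 at 5 months and 1052, 1681, 1546, 1303 and 787 at 20 months. The ages overlapped, and the lowest older value was that of mouse 74. The means were 1038 ± 345 and 1274 ± 363 (log2 difference 0.31 ± 0.28, limma adjusted p = 0.438).

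*Oat*, which channels ornithine toward glutamate in the same pericentral hepatocytes, had values of 1559, 1979, 3062 and 2833 at 5 months and 1319, 2008, 1868, 1557 and 859 at 20 months. All 5 older livers were below the younger mean, but the ages overlapped, since mice 17 and 18 lay within the younger range. The log2 difference was -0.64 ± 0.28 (limma adjusted p = 0.124), and it passed the threshold only where all 27 samples shared 1 estimate of the spread (adjusted p = 0.0186).

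*Cyp2e1* had values of 7616, 15240, 15773 and 15122 at 5 months and 10716, 10976, 11677, 11911 and 6232 at 20 months. Within each age, 1 liver stood apart on the low side, mouse A at 5 months and mouse 74 at 20 months. The other 3 younger livers were above all the older ones. The log2 difference over all 9 livers was -0.36 ± 0.35 (limma adjusted p = 0.472). *Cyp1a2*, which metabolizes caffeine and is a target of the aryl hydrocarbon receptor, ranged from 334 to 629 at 5 months and from 365 to 710 at 20 months (log2 difference 0.20 ± 0.24, limma adjusted p = 0.572).

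*Axin2*, a feedback inhibitor of Wnt signaling, ranged from 14.9 to 28 at 5 months and from 13.7 to 25 at 20 months (log2 difference -0.06 ± 0.22, limma adjusted p = 0.861). *Tbx3*, a transcription factor induced by beta-catenin in pericentral hepatocytes, ranged from 56.9 to 72.2 and from 39.4 to 79.8 (log2 difference -0.18 ± 0.19, limma adjusted p = 0.528). Its spread was a coefficient of variation of 10.03% among the 4 younger livers and 29.1% among the 5 older ones. For both genes, the older values covered nearly the whole younger range.

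*Glul* and *Oat* differed from liver to liver in step, although they behaved unlike each other between ages. After the mean of each age was subtracted, their log2 values correlated across the 9 livers with a Pearson r of 0.979, the highest of the 45 pairs of markers, and the values within a liver share its library, depth and scaling. The ratio of *Glul* to *Oat* was 0.405, 0.444, 0.411 and 0.488 in the younger livers and 0.798, 0.837, 0.828, 0.837 and 0.916 in the older ones. The ratio did not overlap between the ages and was nearly constant within them, with means of 0.437 ± 0.0382 and 0.843 ± 0.0437. A ratio within a library does not depend on how the sample was scaled, and shows unequal change, not which gene changed. This pair was singled out after its values were seen, and the difference was therefore not tested.

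**Figure D2:**
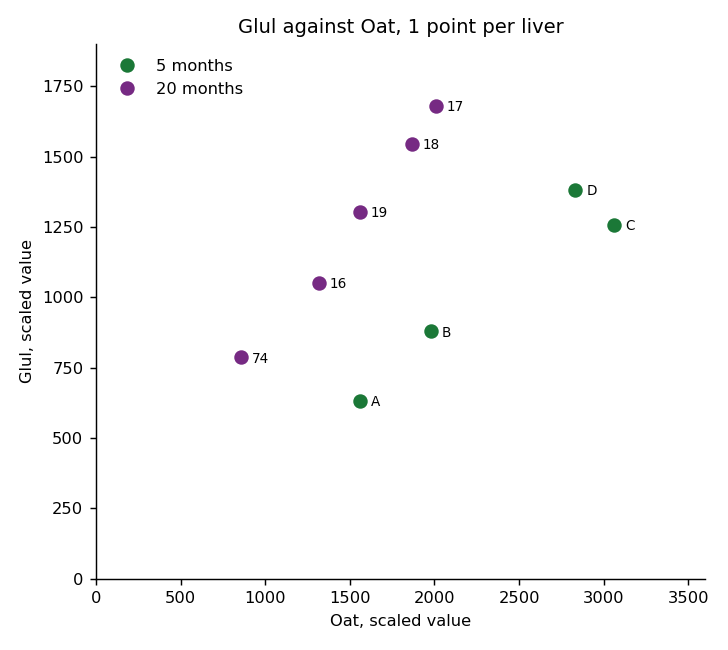
Scaled value of *Glul* (y axis) against that of *Oat* (x axis) in each liver, with the mouse letter or number beside each point (green, 5 months; purple, 20 months). The livers of each age lie along a line of their own, with ratios of 0.405 to 0.488 at 5 months and 0.798 to 0.916 at 20 months.

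The 3 periportal enzymes that were lower at 20 months also varied together within ages. *Sds* and *Gls2* correlated within ages with r = 0.811, *Hal* and *Gls2* with 0.669 and *Hal* and *Sds* with 0.641 over the 9 livers. *Hal* also correlated with the pericentral *Tbx3* (0.8). *Sds* correlated negatively with *Glul* (-0.41), *Cyp1a2* (-0.48) and *Axin2* (-0.49), whereas *Cyp2f2* correlated with *Tbx3* (0.708) more than with the other periportal markers (-0.16 to 0.367). The 2 younger livers with the highest *Sds* and *Gls2*, those of mice A and B, also had the lowest *Glul*, *Oat*, *Cyp1a2* and *Axin2* of their age. These are descriptions of 9 livers, without a test.

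The mean log2 value of the 6 pericentral markers minus that of the 4 periportal markers was -0.81, -0.37, 0.53 and 0.47 in the younger livers of mice A, B, C and D. It was 0.74, 0.71, 0.72, 0.42 and 0.36 in the older livers. All 5 older livers were above mice A and B, and 3 of them were also above mice C and D. Mouse 74 had the lowest *Glul*, *Cyp2e1*, *Oat*, *Cyp1a2*, *Tbx3*, *Cyp2f2*, *Hal* and *Sds* of the older livers, and its balance of pericentral to periportal markers, 0.36, was the lowest of the 5.

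The genes most like each marker across the 9 livers, after the mean of each age was subtracted, were found among 10023 genes with a mean value of at least 5. *Oat* and *Glul* shared *Aldh9a1*, an aldehyde dehydrogenase, with r = 0.989 and 0.968, and *Oat* also had *Sec63* (0.988). *Cyp2e1* was followed by *Uggt1* (0.964) and *Lman2* (0.954), both of glycoprotein folding or transport, *Cyp1a2* by *Leprotl1* (0.974) and *Alg14* (0.939), *Axin2* by *Swi5* (0.971) and *Zfyve21* (0.969), and *Tbx3* by *Rassf7* (0.982) and *Cth* (0.98). Among the periportal markers, *Hal* was followed by *Fam207a* (0.978) and *Tcof1* (0.977), *Sds* by *Rbm14* (0.978) and *Kansl3* (0.971), *Gls2* by *Grb2* (0.983) and *Col6a2* (0.968), and *Cyp2f2* by *Ift27* (0.932) and *Cebpe* (0.921). With 9 livers and this many genes, correlations of this size are a ranking only.

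Zonated genes beyond the 10 markers were divided by zone in their age difference. These lists were chosen with earlier results of these data known, so they are not independent support for the markers. Of 27 other pericentral genes tested in liver, 12 were higher at 20 months, where 10% of all genes were, 0 were lower and 15 did not pass the test, with a median log2 difference of 0.60. Of 22 other periportal genes, 11 were lower, where 9.79% of all genes were, 0 were higher and 11 did not pass. Their median was -0.95, against 0.00106 over all genes. Across the 17 alternatives the pericentral count of higher genes ranged from 4 to 15, with at most 1 lower, and the periportal count of lower genes from 8 to 13, with 0 higher. The fewest higher pericentral genes, 4, were found without mouse B, and 5 were found without mouse 18 and 7 without mouse 17 or mouse A. When the samples were rescaled without the 20 most abundant genes, the median of all genes moved to 0.16, and relative to it the list medians were 0.61 and -0.94. The calls over all genes then split into 2205 higher and 478 lower, against 1269 and 1239.

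The pericentral genes with the largest increases were *Gstm3*, a glutathione S-transferase, *Slc13a3*, a dicarboxylate carrier, *Rhbg*, an ammonia channel, and *Akr1c6*, an aldo-keto reductase. *Akr1c6* rose from 151 ± 62.8 to 572 ± 107 (log2 difference 2.0 ± 0.27, limma adjusted p = 0.0056) and *Slc13a3* from 9.41 ± 4.43 to 41.5 ± 16.2 (2.02 ± 0.36, adjusted p = 0.00866). *Gstm3* rose from 16.4 ± 5.43 to 99.3 ± 73.8 and *Rhbg* from 4.3 ± 2.58 to 24.1 ± 16.8, and kept their calls in 15 and 8 of the 17 alternatives. *Gstm3* belongs to a multigene family of near-identical copies, so its reads are uncertain.

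The periportal genes with the largest decreases were *Etnppl*, ethanolamine-phosphate phospholyase, *Apoa4*, an apolipoprotein, *Cps1*, the first enzyme of the urea cycle, and *Sdsl*, a paralog of *Sds*. *Cps1* fell from 8119 ± 3349 to 1805 ± 468 (log2 difference -2.14 ± 0.31, limma adjusted p = 0.00605) and *Sdsl* from 75.1 ± 29 to 16.5 ± 4.76 (-2.09 ± 0.28, adjusted p = 0.00557). *Etnppl* fell from 183 ± 141 to 25 ± 8.69 (-2.48 ± 0.53, adjusted p = 0.0136). *Apoa4* fell from 2135 ± 1944 to 379 ± 415, and lost its call in 7 of the 17 alternatives.

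**Figure D3:**
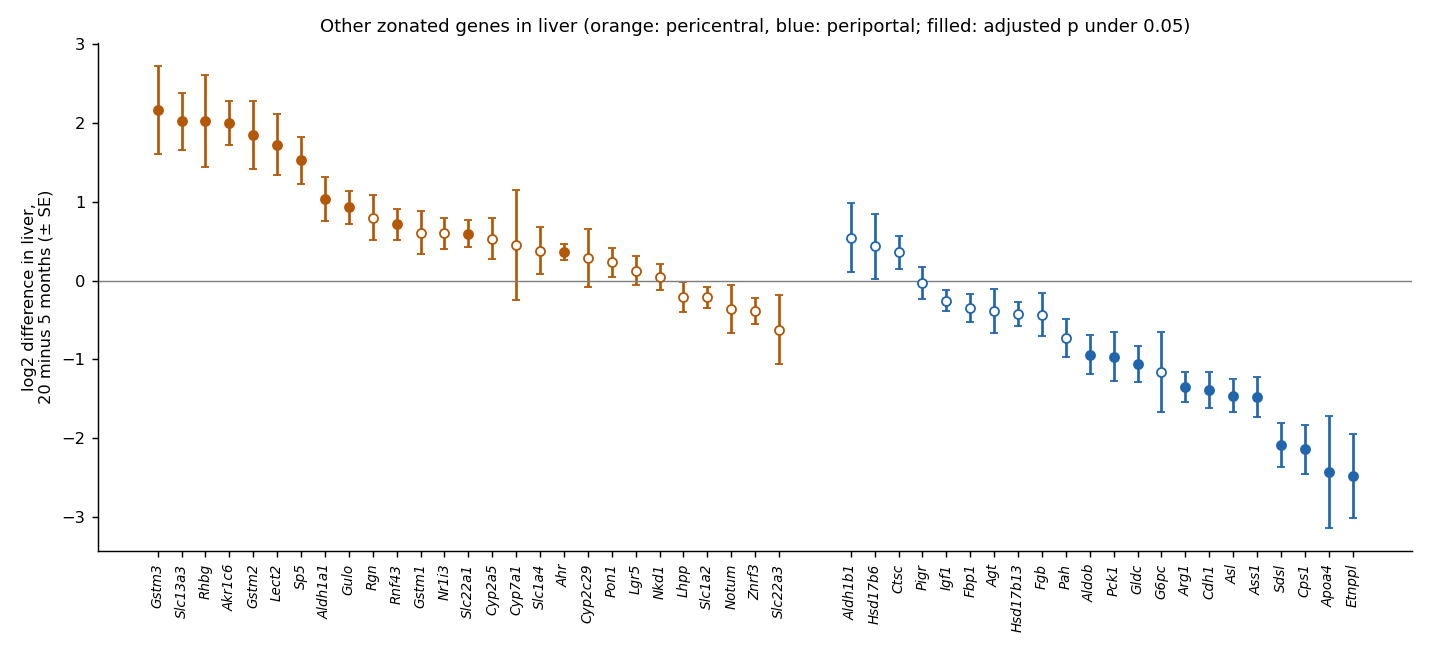
Log2 difference in liver between 20 and 5 months, with its SE, for 27 other pericentral genes (orange) and 22 other periportal genes (blue), sorted within each list. Filled points passed limma's adjusted threshold of 0.05, 12 of them pericentral and above 0, and 11 periportal and below 0.

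The pathways in which the periportal markers act gave the following counts. Of all genes tested in liver, 9.79% were lower at 20 months and 10% were higher. The lists share genes with each other and with the other zonated genes, so their counts are not independent. Shared genes include *Cps1*, *Ass1*, *Asl*, *Arg1*, *Sdsl*, *Gldc*, *Pck1*, *Tat* and *Rhbg*. Of 19 other genes of the urea cycle and ammonia handling tested, 7 were lower and 1, *Rhbg*, was higher, with a median log2 difference of -0.21. *Ass1* and *Asl*, the urea cycle steps after *Cps1*, fell from 5734 ± 1209 to 2096 ± 607 and from 1320 ± 319 to 479 ± 112 (limma adjusted p = 0.00866 and 0.00605). Of 14 other genes of histidine, serine and glycine catabolism, 3 were lower, *Sdsl*, *Gldc* of the glycine cleavage system and *Mat1a*, which makes S-adenosylmethionine, and 0 were higher. *Gldc* fell by 1.06 ± 0.23 on the log2 scale (adjusted p = 0.0147) and *Mat1a* by 1.4 ± 0.30 (adjusted p = 0.0136), which was lost with no filter (0.144) and with all 27 samples in 1 fit (0.256).

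Of 11 genes of aromatic amino acid catabolism, 5 were lower and 0 higher, with a median of -0.73, where 9.79% of all genes were lower. Among them *Tat*, tyrosine aminotransferase, fell from 3671 ± 2064 to 973 ± 396, and *Tdo2*, tryptophan dioxygenase, from 3449 ± 426 to 1526 ± 377 (limma adjusted p = 0.0112 and 0.00839). *Hpd* and *Hgd*, later enzymes of tyrosine breakdown, fell by 0.92 ± 0.24 and 0.80 ± 0.18 on the log2 scale (adjusted p = 0.0269 and 0.0161). *Hpd* lost its call in 5 of the 17 alternatives, among them mouse A, B or C left out (0.0629, 0.0821 and 0.0532), and *Hgd* (0.0634) and *Tdo2* (0.0704) lost theirs with all 27 samples in 1 fit. Of 14 genes responsive to fasting and glucagon, 4 were lower, *Pck1*, *Tat*, *Irs2* and *Cpt1a*, and 0 higher, against the same 9.79%. *Pck1*, the gluconeogenic PEP carboxykinase, and *Cpt1a*, of mitochondrial fatty acid import, were close to the threshold (limma adjusted p = 0.0497 and 0.0495) and lost their calls in 12 and 9 of 17 alternatives. *Irs2*, an insulin receptor substrate, fell by 1.52 ± 0.44 on the log2 scale (adjusted p = 0.0357) and lost its call in 10.

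Next are 31 other genes of the Wnt and beta-catenin pathway, which sets the pericentral program. Of all genes tested in liver, 10% were higher and 9.79% lower. Of the 31, 4 were higher, *Wnt4*, *Rnf43*, *Sp5* and *Tnfrsf19*, and 5 were lower, *Lgr4*, *Lrp6*, *Fzd4*, *Apc* and *Gsk3b*, with a median of -0.14. By edgeR 10 passed and by DESeq2 13. *Rnf43* and *Sp5* are also among the 12 higher pericentral genes above, so the 2 counts are not independent. *Sp5*, a direct beta-catenin target, rose from 3.29 ± 1.84 to 10.8 ± 2.96 (log2 difference 1.53 ± 0.30, limma adjusted p = 0.0113), while the target *Axin2* had the values given above. *Wnt4*, a ligand, rose from 2.41 ± 0.4 to 6.94 ± 0.307 (adjusted p = 0.00231) and *Tnfrsf19*, another Wnt target, from 3.37 ± 1.57 to 10.1 ± 2.65 (adjusted p = 0.00966). *Apc*, part of the complex that destroys beta-catenin, fell by 0.72 ± 0.15 on the log2 scale (adjusted p = 0.0141), and missed the threshold when rescaled without the 20 most abundant genes (0.0549).

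Of 16 hepatocyte transcription factors, 3 were lower, *Onecut1*, *Prox1* and *Yap1*, and 1 was higher, *Ahr*, a count near the 19.8% of all genes that passed. *Prox1*, a factor of hepatocyte identity, fell from 241 ± 33.8 to 139 ± 12.4 (limma adjusted p = 0.00626, and 0.242 with all 27 samples in 1 fit), and *Onecut1*, *Yap1* and *Ahr* lost their calls in 10, 8 and 8 of 17 alternatives. *Ahr*, the receptor that induces *Cyp1a2*, rose from 44.8 ± 3.54 to 58.1 ± 6.09 (adjusted p = 0.0349). Of the 4 other aryl hydrocarbon receptor targets tested, 0 passed in either direction by limma, edgeR or DESeq2 and 0 had an unadjusted limma p under 0.05, and the most abundant, *Ugt1a6a* and *Nqo1*, had log2 differences of -0.17 ± 0.10 and 0.24 ± 0.27. *Ugt1a6a* shares its last exons with the other *Ugt1a* genes, which makes its reads uncertain.

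Markers of other cell types also differed between the livers of the 2 ages, where 10% of all genes tested were higher and 9.79% lower. Of 8 hepatocyte markers, 0 passed the test by limma, 0 had an unadjusted p under 0.05, 0 passed by edgeR and 3 by DESeq2, with a median of -0.36. Their summed value was 120964 to 172281 in the younger livers and 58295 to 114455 in the older ones, without overlap in scaled values. The lowest older sum was that of mouse 74, and the other older sums were 102251 to 114455. As a part of the sum of all values the ages overlapped, with 120964 of 1375241 in mouse C and 114455 of 1229222 in mouse 18. A large part of each sum was *Alb* alone, with values of 73618.5 to 125324 in the younger livers and 26970.1 to 69594.9 in the older ones. All 5 B and plasma cell markers tested were higher, with sums of 1.89 to 8.4 and 9.76 to 39.3, as were 4 of 7 stellate cell and fibroblast markers (281 to 398 and 382 to 541) and 4 of 5 erythroid markers (664 to 842 and 953 to 1257). Of 9 endothelial markers of the central vein and sinusoids, the source of the Wnt ligands, 0 passed by limma, and 1 had an unadjusted p under 0.05 or passed by edgeR or DESeq2, with sums of 180 to 374 and 159 to 218. Of 5 Kupffer cell markers 1 was higher, of 5 cholangiocyte markers 1 was higher and 1 lower, and of 4 mesothelial markers 1 was higher, with 1 T cell marker and 1 pancreatic acinar marker tested and higher. The older livers alone could meet the minimum, so a low gene could be tested because it was high at that age. Counts of the B and plasma cell, T cell and acinar lists are limited by this. Sums over all listed genes do not depend on it. They overlapped between ages for T cell markers (1.53 to 3.52 and 3.24 to 13.6) and acinar markers (3.42 to 11.3 and 10.9 to 14.9). Those of B and plasma cell markers did not overlap. The part of these cell type differences in those of the zonation markers was not tested. Skeletal muscle fiber markers were near 0 in liver, with sums of 0.351 to 1.21 and 5 of 7 listed at 0 in all livers. Of the 6 adipocyte markers 2 were tested in liver, of which *Pparg* was higher and *Cidec* lower, with sums over the list of 154 to 223 and 43.8 to 214, and *Lep* was at 0 in all livers.

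In omental adipose tissue, 3 of the 7 markers tested were lower at 20 months, *Cyp2e1*, *Cyp2f2* and *Tbx3*, and 0 were higher, and the share of all 14005 genes tested that were lower was 9.35%. The median over the 7 was -0.71, against 0.00718 over all genes. *Cyp1a2*, *Sds* and *Gls2* did not reach the minimum value and had at most 32 reads in any sample.

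*Cyp2e1* was the most abundant marker of the adipose tissue at 5 months, and at 20 months it ranked after *Glul*. Its values were 3220, 2318, 2054 and 1832 in mice A, B, C and D at 5 months, and 522, 334, 102, 88.4 and 325 in mice 36 to 40 at 20 months. The highest older sample had less than the lowest younger one. The mean fell from 2356 ± 610 to 274 ± 181, 8.59 times lower, with a log2 difference of -3.38 ± 0.52 (limma adjusted p = 0.00948, exact permutation p = 0.00794), and the call held without each sample in turn (adjusted p from 0.00285 to 0.0382).

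*Cyp2f2* had values of 91.4, 21.7, 8.63 and 11.7 at 5 months and 2.65, 4.44, 2.11, 0.797 and 0.777 at 20 months. The ages did not overlap, and mouse A was far above the other younger mice. In mice 39 and 40 the value was under the minimum of 1, so the younger samples were needed for the gene to be tested. Its call was kept with no filter on low values. The log2 difference was -2.97 ± 0.62 (limma adjusted p = 0.0201), -2.29 without mouse A (adjusted p = 0.039), and it missed the threshold without mouse 39 (adjusted p = 0.051) and without mouse B (0.0525).

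*Tbx3* had values of 49.4, 41.6, 55.3 and 30.7 at 5 months and 30.1, 10.4, 8.98, 18.3 and 26.5 at 20 months. The ages were separated only by the gap from 30.1 to 30.7. Per read on genes they overlapped, with 1056 of 21276867 reads in mouse D and 1022 of 19757519 in mouse 36. The log2 difference was -1.30 ± 0.35 (limma adjusted p = 0.0357), and the call was lost without mouse A, B, C, 37, 38 or 39 (adjusted p from 0.0577 to 0.0936) and with no filter on low values (0.0593). *Glul* had means of 878 ± 298 and 525 ± 140 (log2 difference -0.71 ± 0.27, adjusted p = 0.0823), and passed by DESeq2 (0.0207) and without mouse 36 (0.0378) or mouse C (0.0439). *Axin2* (-0.52 ± 0.27), *Hal* (-0.36 ± 0.24) and *Oat* (0.01 ± 0.10) did not pass, and *Oat* was the least variable marker, with values of 95.6 to 119 at 5 months and 97.9 to 114 at 20 months.

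**Figure D4:**
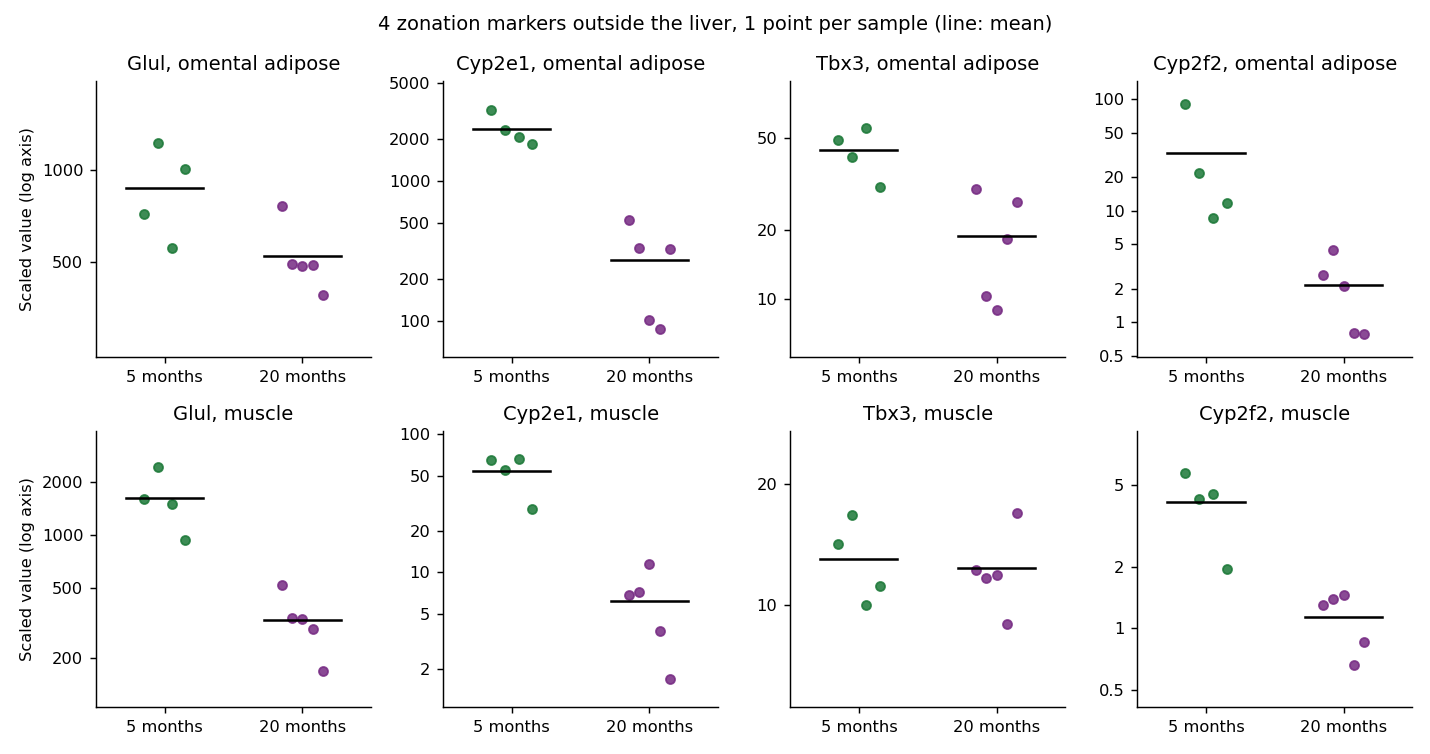
Scaled values on log axes of *Glul*, *Cyp2e1*, *Tbx3* and *Cyp2f2* in omental adipose tissue (upper row) and skeletal muscle (lower row) at 5 months (green, n = 4) and 20 months (purple, n = 5), with 1 point per sample and a line at the mean. In these scaled values the ages do not overlap for *Cyp2e1* and *Cyp2f2* in both tissues, for *Tbx3* in adipose tissue and for *Glul* in muscle. Per read on genes, *Tbx3* in adipose tissue overlaps. The share of all genes without overlap is not given here.

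Markers of other cell types differed between the ages in adipose tissue too. Of all 14005 genes tested there, 9.35% were lower and 1365 were higher. Of 6 adipocyte markers 2 were lower, *Cfd* and *Pparg*, with sums of 5885 to 7691 at 5 months and 4082 to 7037 at 20 months, and *Adipoq* was 777 ± 240 and 1022 ± 184 (limma adjusted p = 0.209). Of 4 mesothelial markers 2 were lower, with sums of 53.9 to 117 and 29.9 to 62.6, and 5 of 6 B and plasma cell markers were higher, with sums of 11.7 to 99.2 and 28.1 to 354. Of 7 endothelial markers tested 4 were lower (535 to 1146 and 315 to 614), as were 2 of 5 erythroid markers (724 to 1733 and 311 to 794). The part of these in the differences of *Cyp2e1*, *Cyp2f2* and *Tbx3* was not tested. Hepatocyte markers were low, with sums of 19.4 to 69.3 and 4.79 to 267, and the younger sample with the highest *Cyp2e1* and *Cyp2f2*, mouse A, had a sum of 22.

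In skeletal muscle, *Glul*, *Cyp2e1* and *Cyp2f2* were lower at 20 months, 3 of the 6 markers tested, and 0 were higher, against 10.1% lower among all 12720 genes tested. *Glul* values were 1592, 2435, 1493 and 943 in mice A, B, C and D, and 518, 340, 333, 295 and 170 in mice 56 to 60. At 5 months the range in muscle, 943 to 2435, overlapped that in liver, 632 to 1383, and every older muscle was below every younger one. The mean fell from 1616 ± 616 to 331 ± 125, 4.88 times lower, with a log2 difference of -2.29 ± 0.30 (limma adjusted p = 0.00166, exact permutation p = 0.00794). The call held without each sample in turn, with log2 differences of -2.52 to -2.07.

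*Cyp2e1* in muscle had values of 65, 54.8, 65.8 and 28.8 at 5 months and 6.85, 7.18, 11.5, 3.75 and 1.71 at 20 months, again without overlap (log2 difference -3.04 ± 0.39, limma adjusted p = 0.00145). *Cyp2f2* was near the detection limit of the test, with values of 1.95 to 5.76 and 0.661 to 1.45, or 28 to 75 and 9 to 21 reads (log2 difference -1.22 ± 0.23, adjusted p = 0.00711, and 0.0597 where all 27 samples shared 1 estimate of the spread). Mice 59 (0.661) and 60 (0.855) were under the minimum of 1, so here too the younger samples were needed for the test. The *Cyp2f2* call was kept with no filter. *Oat* (0.07 ± 0.10), *Axin2* (0.13 ± 0.12) and *Tbx3* (-0.07 ± 0.18) did not pass, and *Cyp1a2*, *Hal*, *Sds* and *Gls2* were below the minimum value, with *Sds* listed at 0 reads in all 5 older samples.

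Hepatocyte markers in muscle summed to 2.15, 35.3, 402 and 44.4 in mice A, B, C and D, and to 0.143 to 77 in the older samples. The muscle of mouse C, with the sum of 402, also had the highest *Cyp1a2*, *Hal* and *Sds* of its group, and the part of liver RNA in those values was not tested. The muscle of mouse A had a sum of only 2.15 beside a *Cyp2e1* value of 65, and the *Cyp2e1* difference was -2.92 without mouse C (limma adjusted p = 0.00278). Of all 12720 genes tested in muscle, 10.1% were lower and 1161 were higher. Adipocyte markers in muscle summed to 68.4 to 123 and 27 to 115, with 1 of 6, *Cfd*, lower. Of 6 stellate cell and fibroblast markers tested, 4 were lower. Of 5 erythroid markers 3 were lower (sums of 420 to 700 and 291 to 587), of 6 endothelial markers tested 2 were higher, *Stab2* and *Rspo3*, and 2 lower, *Pecam1* and *Lyve1* (341 to 545 and 253 to 344), and of 3 cholangiocyte markers tested *Sox9* was lower. The part of these in the differences of *Glul*, *Cyp2e1* and *Cyp2f2* was not tested. Fiber markers summed to 145352 to 169183 and 133076 to 160139, with 0 of 7 passing by limma and 1 with an unadjusted p under 0.05 or past the threshold of edgeR or DESeq2.

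**Figure D5:**
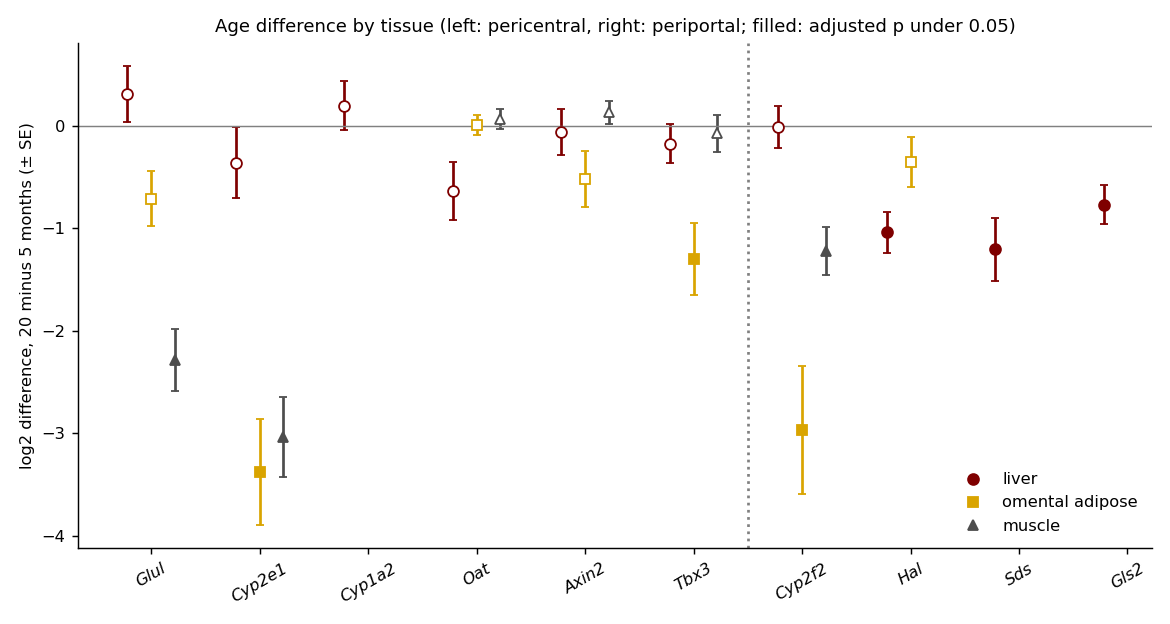
Log2 difference between 20 and 5 months, with its SE, for the 10 markers in liver (circles), omental adipose tissue (squares) and skeletal muscle (triangles), and filled symbols for limma adjusted p under 0.05. Filled symbols are *Hal*, *Sds* and *Gls2* in liver, *Cyp2e1*, *Tbx3* and *Cyp2f2* in adipose tissue, and *Glul*, *Cyp2e1* and *Cyp2f2* in muscle, and a gene below the minimum value in a tissue has no symbol there.

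The age difference itself differed between tissues for some markers, as tested in a fit of all 27 samples. Between liver and omental adipose tissue, 4 of the 10 passed, against 15.6% of 15572 genes, namely *Cyp2e1* (3.02 ± 0.62), *Cyp2f2* (2.95 ± 0.61), *Tbx3* (1.12 ± 0.39) and *Sds* (-1.35 ± 0.37), as log2 differences of liver minus adipose (limma adjusted p = 0.00243, 0.0023, 0.0484 and 0.0149). *Tbx3* missed the threshold in 17 of the 23 alternatives, among them a pseudocount of 0.5 (adjusted p = 0.051) and each of the 4 younger mice left out. *Sds* had 0 to 20 reads and *Gls2* 4 to 32 in the adipose samples, below the minimum value, so that no change could be seen there and their differences restate those of liver. *Sds* missed the threshold without mouse A (0.0624) or mouse B (0.0744), and *Gls2* (-0.78 ± 0.28, adjusted p = 0.0553) passed it when the mouse was kept as a replicate block (0.0448) and in 4 of the fits that left out a sample or mouse.

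Between liver and muscle, 2 of the 10 passed, against 17.5% of genes, *Glul* (2.60 ± 0.44, limma adjusted p = 0.000426) and *Cyp2e1* (2.67 ± 0.62, adjusted p = 0.00512). *Hal*, *Sds* and *Gls2* had at most 20 reads in any muscle, too few to show a change there, so the comparison holds no more than their liver values, and their calls, absent with all samples and present without mouse C, are not read. *Oat* passed without mouse A (0.037) or mouse 17 (0.0361).

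Most markers were higher in liver than elsewhere. Against omental adipose tissue, 7 of 10 were higher in liver at 5 months and 9 of 10 at 20 months, where 36.5% and 35.7% of genes were, and against muscle 9 of 10 at both ages, where 36% and 39.2% were. The exceptions against adipose tissue were *Glul* (log2 difference 0.24 ± 0.33), *Axin2* (-0.26 ± 0.24) and *Tbx3* (0.56 ± 0.29) at 5 months, and *Axin2* (0.19 ± 0.21) at 20 months. Against muscle they were *Glul* at 5 months (-0.62 ± 0.33, limma adjusted p = 0.0902) and *Axin2* at 20 months (0.40 ± 0.21, adjusted p = 0.0951), and the *Axin2* call against muscle at 5 months was lost without mouse C or D (0.166 and 0.119). *Glul* was higher in liver at 20 months, by 1.26 ± 0.29 over adipose tissue and 1.98 ± 0.29 over muscle (adjusted p = 0.00041 and 1.05e-06). The 4 periportal markers were higher in liver in each of these comparisons, for *Cyp2f2* by log2 differences of 4.8 and 7.76 over adipose tissue at 5 and 20 months. *Hal*, *Sds* and *Gls2* had at most 65 reads in any adipose or muscle sample, so that the size of their differences is set by the pseudocount and is not given.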

How the data were processed

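RNA from liver, omental adipose tissue and skeletal muscle of *Mlx*KO mice was measured by poly(A)-selected RNA-seq from a directional library kit. The authors mapped and counted the reads in CLC Genomics Workbench version 23.0 and deposited 1 value per gene and sample, a scaled signal headed CPM, while per the labels and the paper a separate mapping used GRCm38.p6. The build, annotation and strand setting used in CLC are not given in the sources used here, and 6 of the 10 markers overlap an annotated gene on the other strand, so reads of such partners may not be told apart. In every sample 100% of the deposited signal values were whole multiples, within 0.1, of what 1 read was worth, and these reads were recovered. The design had assumed CPM, and its test on log2(value + 1) was kept. Groups were taken from tissue and age in the sample titles, and 0 columns were left out. The 48 pairs of samples within groups differed beyond sampling noise (chi-square of 9.21 to 201.6 for each degree of freedom), so each sample was counted once. Among the younger livers, A with B (42.2) and C with D (13.5) were closer than the pairs across them (89.2 to 102). Why they pair was not tested. The samples of a group carry separate numbers. For older samples these are called mouse numbers here, and the labels do not say whether older samples of different tissues came from the same animals.

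Ages were compared within each tissue by limma-trend (limma 3.58.1, R 4.3.3) over the genes that reached a value of 1 in 4 or more of the 9 samples, and adjusted p-values (Benjamini-Hochberg) under 0.05 passed. Age differences between tissues and differences between tissues came from 1 fit of the 27 samples, repeated with a replicate block for the mouse. Each older sample was a block of its own, so any pairing among older samples was not modeled. The 4 younger mice gave all 3 tissues, and the deviations of a mouse's tissues from their group means correlated with r of -0.017 to 0.294 (consensus correlation 0.1008). Single genes were also compared by exact two-sided permutation tests. Lengths are merged exons of GENCODE M21, and promoter sequences are RefSeq windows of GRCm38.p6.

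The genes named are the 10 markers, *Mlx*, and for each other list up to 4 genes past the threshold with the largest log2 difference in liver, or the 2 most abundant where none passed. For likeness, the 2 genes with the highest Pearson correlation to each marker were taken. The members and the lists were chosen with earlier results of these data known, and no list is independent support. The alternatives were a pseudocount of 0.5, no filter, median-of-ratios factors, rescaling without the 20 most abundant genes, count tests of the recovered reads (edgeR 4.0.16, DESeq2 1.42.0), all 27 samples in 1 fit, and omission of each sample or mouse. A correction for gene length and GC content was added after seeing the data. The procedure was tested on simulated reads with known changes.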

Additional observations from a re-analysis of the deposited data

Results flagged for a closer look

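Some samples stood far from the others of their group, by a gap to the nearest sample that took up most of the group's range (Dixon's 95% limits). Such gaps were found in 9 of the 58 groups of a marker, tissue and age examined, and chance alone flags about 5% of groups. In liver they concerned *Cyp2e1*, which was 7616 in mouse A against 15122 to 15773 in the other younger mice, and 6232 in mouse 74 against 10716 to 11911 in the other older mice. In omental adipose tissue *Cyp2f2* was 91.4 in the younger mouse A against 8.63 to 21.7 in the others, and *Glul* was 763 in the older mouse 36 against 391 to 495.

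In muscle, the younger mouse C stood above its group for *Cyp1a2* (3.52), *Hal* (1.41) and *Sds* (1.57), and it was also the muscle sample with the highest sum of hepatocyte markers, 402. The older muscle of mouse 58, which had the highest such sum of its group, 77, stood apart for *Cyp1a2* (0.651), and that of mouse 60, with a sum of 0.143, for *Hal* (1.35). The part of liver RNA in these values was not tested.

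The age difference of liver differed from that of omental adipose tissue for *Cyp2e1* (log2 difference 3.02), *Cyp2f2* (2.95), *Tbx3* (1.12) and *Sds* (-1.35), and from that of muscle for *Glul* (2.60) and *Cyp2e1* (2.67), each by limma's test of the difference over all 27 samples. *Sds* had at most 20 reads in any adipose sample, so that a change there could not be seen. For *Cyp2e1*, *Cyp2f2* and *Glul* the decreases that passed were outside the liver.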

How the results depend on the processing

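The counts of genes past the threshold moved most when 1 sample was left out, over 959 to 3557 in liver (2508 with all samples), 397 to 3748 in omental adipose tissue (2674) and 1158 to 3796 in muscle (2451). In liver the count shifted by over 1.5 times without mouse 17 (1376), 18 (959), 19 (1476), A (1351), B (980), C (1600) or D (1618). In adipose tissue this was so without mouse 37 (924), 38 (1036), 39 (662), 40 (1022), A (397) or B (596), and in muscle without mouse 57 (1552), 58 (1352), 60 (1158), B (1518) or C (3796). The adipose count was 1525 with no filter, 4348 by DESeq2 and 5270 with all 27 samples in 1 fit, and the muscle count was 1507 with no filter. The difference in age change was called for 1438 (without mouse B) to 3359 genes between liver and adipose tissue, and for 1727 (without mouse B) to 3354 between liver and muscle. The number of markers called ranged over the same omissions from 1 (mouse A or B) to 3 in liver, from 1 (mouse B or 39) to 4 in adipose tissue, from 2 (mouse A or B) to 4 between liver and adipose tissue, and from 2 to 5 (mouse C) between liver and muscle, where *Hal*, *Sds* and *Gls2*, too low to measure in muscle, made up the difference. The cause was not tested.

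Every gene whose direction turned had missed the threshold. Rescaling without the 20 most abundant genes gave log2 differences of 0.1035 for *Axin2*, 0.1614 for *Cyp2f2* and 0.0002722 for *Ugt1a6a* in liver, -0.01255 for *Oat* in adipose tissue and 0.0004331 for *Tbx3* in muscle. The correction for gene length and GC content, chosen after seeing the data, gave -0.0834 for *Oat* in adipose tissue and 0.1013 for *Tbx3* in muscle, and DESeq2 gave -0.01023 for *Oat*. With each sample left out, *Axin2* in liver ranged from -0.1997 to 0.08922, *Cyp2f2* in liver from -0.1757 to 0.122, *Oat* in adipose tissue from -0.03032 to 0.07474 and *Tbx3* in muscle from -0.1846 to 0.05016. Between tissues, the age change ranged from -0.1161 to 0.1457 for *Cyp1a2* (liver against adipose tissue) and from -0.2834 to 0.02267 for *Tbx3* (liver against muscle), and the level in liver against adipose tissue from -0.07121 to 0.4793 for *Glul* at 5 months and from -0.01361 to 0.3486 for *Axin2* at 20 months.

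Rescaling split the calls into 1733 higher and 992 lower in muscle, and the length and GC correction into 1591 and 1148, against 1161 and 1290. Adding a replicate block for the mouse raised the genes whose age change differed from 2424 to 2758 (liver against adipose tissue) and from 2732 to 3071 (liver against muscle), and *Gls2* (-0.78) was the only marker call changed. With 4 and 5 samples per group, leaving out 1 mouse changed the call of genes near the threshold, and 3 reads set the lowest level that can be told from 0.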
